A study of Homo sapiens with 2 samples.

Results

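The genes described here are processed pseudogenes of cytosolic ribosomal proteins that had counts in a human mammary epithelial cell line. They were chosen as the genes typed processed or transcribed processed pseudogene in GENCODE release 44, with a symbol made of a ribosomal protein name followed by P and a number, with at least 1 CPM (counts scaled to a library total of 1000000) as the mean of 2 count tables. The rule kept 182 of the 1497 pseudogenes with such symbols, among 58735 genes in the tables, and these 182 are called members below. The members were selected on their mean CPM, so their levels are a description.

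The series holds 1 Nanopore direct RNA library, run on a MinION, and 1 Illumina library made with a stranded mRNA kit. Both used polyadenylated RNA from cells of MCF10a-Snail-ER, a line of the non-malignant breast epithelial cells MCF10A that stably carries the transcription factor Snail fused to the estrogen receptor. Both had 100 nM tamoxifen, which activates the fusion, for 1 day, the start of a passage from epithelial to mesenchymal state, and the RNA of the pair is described as matched. Whether the Nanopore reads were corrected with the Illumina reads before counting is not given in the sources used here, so that the 2 tables are independent was not tested. No untreated library is described in the labels, each platform has 1 library, and every test below compares these 2 libraries and not the platforms in general. The total was 403235 counts by Nanopore and 191741714 by Illumina, and 1 count was worth 2.48 CPM by Nanopore and 0.00522 CPM by Illumina. All 8 epithelial markers examined, keratins among them, had counts in both libraries, and 5 markers of leukocytes, endothelium, stroma and erythroid cells were at 0 by Nanopore and summed to 10.2 CPM by Illumina.

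Ribosomal proteins are built into the large (RPL) and small (RPS) subunits of the ribosome, and their mRNAs are short, intron-spliced and among the most abundant of a cell. Processed pseudogenes arise when an mRNA is reverse transcribed and inserted elsewhere in the genome, which leaves a copy without introns and without the parent's promoter. Young copies are nearly the same in sequence as the parent, so the RNA of the parent and of the copy are hard to tell apart.

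How close the members are to their parents is shown first, and the part of this likeness in the counts below was not tested. The sequences are stretches of GENCODE transcripts on hg38, written from 5′ to 3′ in lower case, with capitals at each base that differs between member and parent. Positions of differences are counted from 1 at the first base of the parent's coding sequence, with the parent's base first. The first 3 members stand for those whose coding sequence is identical to the parent's: the first 120 bases of RPL21P16 (chr10:120355064-120355183, minus strand), all 210 of RPS28P7 (chr11:82689559-82689768, plus strand) and all 78 of RPL41P1 (chr20:21755270-21755347, plus strand).
RPL21P16: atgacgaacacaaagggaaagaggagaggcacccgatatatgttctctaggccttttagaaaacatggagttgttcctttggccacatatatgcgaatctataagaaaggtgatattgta
RPS28P7: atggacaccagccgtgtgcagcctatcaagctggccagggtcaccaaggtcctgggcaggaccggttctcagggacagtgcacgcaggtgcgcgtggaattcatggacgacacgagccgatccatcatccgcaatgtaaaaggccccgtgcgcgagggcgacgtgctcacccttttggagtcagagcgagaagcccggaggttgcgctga
RPL41P1: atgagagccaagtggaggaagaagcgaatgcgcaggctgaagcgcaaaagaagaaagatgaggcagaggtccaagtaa
RPS27P3 (chr12:3211762-3211881, minus strand) and RPL9P7 (chrX:23836955-23837074, minus strand) stand for members with 1 and 2 differences over the whole coding sequence, which are G156A in RPS27P3 and C351T and T366C in RPL9P7.
RPS27P3: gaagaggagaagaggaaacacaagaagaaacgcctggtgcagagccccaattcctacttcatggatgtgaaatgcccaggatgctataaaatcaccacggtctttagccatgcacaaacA
RPS27: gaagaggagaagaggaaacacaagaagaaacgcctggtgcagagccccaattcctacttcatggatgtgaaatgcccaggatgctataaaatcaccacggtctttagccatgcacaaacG
RPL9P7: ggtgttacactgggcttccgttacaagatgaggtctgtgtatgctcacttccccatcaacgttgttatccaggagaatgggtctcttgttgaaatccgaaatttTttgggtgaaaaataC
RPL9: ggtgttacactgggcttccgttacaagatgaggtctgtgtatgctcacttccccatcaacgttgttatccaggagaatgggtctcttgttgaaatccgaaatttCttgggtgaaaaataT
RPL14P1 (chr12:62965772-62965891, plus strand) and RPS6P25 (chr19:12894490-12894609, plus strand) are 2 members with a higher CPM by Illumina, on 6 and 1 Nanopore counts. The stretch of RPL14P1 holds 4 of its 8 differences (C498G, C501G, C520T and G567A), and that of RPS6P25 holds 16 of 49.
RPL14P1: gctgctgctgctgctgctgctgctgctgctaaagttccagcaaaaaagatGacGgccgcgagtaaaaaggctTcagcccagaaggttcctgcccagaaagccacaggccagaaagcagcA
RPL14: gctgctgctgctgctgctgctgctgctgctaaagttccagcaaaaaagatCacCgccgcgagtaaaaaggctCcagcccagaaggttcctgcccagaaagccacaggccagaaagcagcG
RPS6P25: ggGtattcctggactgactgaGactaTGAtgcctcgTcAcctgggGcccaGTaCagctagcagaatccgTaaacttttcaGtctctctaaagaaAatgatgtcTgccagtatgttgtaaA
RPS6: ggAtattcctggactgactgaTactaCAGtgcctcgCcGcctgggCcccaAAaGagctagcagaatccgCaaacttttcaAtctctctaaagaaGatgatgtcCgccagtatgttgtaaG

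The 182 members lay on 23 chromosomes and derived from 64 parent genes, 125 from large-subunit and 57 from small-subunit proteins. Of them, 169 were processed and 13 transcribed processed pseudogenes, 173 had a single exon, and the median length was 467.5 bases. They reached the rule in different ways. There were 84 members with at least 1 CPM in both libraries, 81 that passed through Nanopore with under 1 CPM by Illumina, and 17 that passed through Illumina with 0 Nanopore counts. In 68 members the Nanopore value was a single count, and 12 members had no Illumina count. The members just inside the rule were RPL36AP8 (mean 1.10 CPM, 0 Nanopore and 422 Illumina counts), RPL17P43 (1.22 CPM, 0 and 466) and RPL32P11 (1.24 CPM, 1 and 0). Just outside were RPL13AP6 (0.936 CPM, 0 and 359), RPS10P7 (0.918 CPM, 0 and 352) and RPS24P19 (0.902 CPM, 0 and 346). Because 1 Nanopore count is enough to pass, the rule holds every pseudogene of the pattern with any Nanopore count, 165 in all, whereas 551 had an Illumina count.

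Together the members held 4749 Nanopore counts, 1.18% of the library (95% Wilson interval 1.14 to 1.21%), and 714344 Illumina counts, 0.373% (0.372 to 0.373%). Set against the counts of the 64 parents, this was 11.6% by Nanopore and 4.31% by Illumina. These shares are a description, since the rule chose the members on the same CPM values and 1 Nanopore count was enough to pass. The intervals cover counting error only. The 10 largest members of each library, which are not the same genes in both, made up 60.5% of the members' total by Nanopore and 48.9% by Illumina.

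RPL21P16 (ENSG00000220842, chr10:120354701-120355183), a copy of the large-subunit gene RPL21 that overlaps no other gene, had the highest mean CPM and the most Nanopore counts of all members, while RPS27P3 had the most Illumina counts. It had 683 Nanopore counts (1694 CPM, 95% interval 1572 to 1826) and 11615 Illumina counts (60.6 CPM). Its parent RPL21 had 133 Nanopore and 240042 Illumina counts, so the pseudogene stood at 514% of its parent by Nanopore (interval 427 to 618%) and at 4.84% by Illumina. RPL21P16 thus far exceeded its parent in 1 library and was a small part of it in the other.

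RPS28P7 (ENSG00000227097), a copy of the small-subunit gene RPS28, had 416 Nanopore counts (1032 CPM) and 25212 Illumina counts (131 CPM). RPS28 itself had 172 and 146048 counts, which put the copy at 242% of the parent by Nanopore (interval 203 to 289%) and 17.3% by Illumina. RPL36AP37 (ENSG00000244398, chr11:16974693-16975013) had 275 Nanopore and 30317 Illumina counts, against 101 and 113450 for RPL36A, a large-subunit gene. That is 272% of the parent by Nanopore (217 to 342%) and 26.7% by Illumina. RPL9P7 (ENSG00000238103) had 101 Nanopore and 2141 Illumina counts against 76 and 117322 for RPL9, or 133% (98.8 to 179%) and 1.82%. These 4 were all the members with more Nanopore counts than the parent, and for RPL9P7 the interval reached below 100%. No member had more Illumina counts than its parent, and the highest, RPS27P3, stood at 31.3%. RPL9P7 is described because of this value, which was seen first.

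Other abundant members were well below their parents in both libraries. RPS27P3 (ENSG00000227081), a copy of the zinc-binding small-subunit protein RPS27, had 274 Nanopore (680 CPM) and 82328 Illumina counts (429 CPM), and stood at 53.9% and 31.3% of RPS27. RPL23AP42, a copy of a protein near the ribosome's exit tunnel, had 326 and 22156 counts, or 55.6% and 7.51% of RPL23A. RPL39P3, whose parent also lies at the exit tunnel, had 189 and 17770 counts, or 44.2% and 15.7% of RPL39. RPS27P3 had the closest values between the libraries among these 3. RPL7P9 had 197 and 28836 counts (42.6% and 9.44% of RPL7), and RPL13AP5 had 157 and 17092 (13.3% and 3.41% of RPL13A). RPS7P1 had 105 and 29070 counts (19.0% and 10.6% of RPS7). RPL6P27, a transcribed processed pseudogene on chromosome 18, had 71 and 25968 counts and stood at 10.1% of RPL6 by Nanopore (7.93 to 12.9%) and 9.97% by Illumina. Its 2 shares of the parent lay within counting error of each other, unlike those of the other members of this paragraph.

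RPL41 encodes the smallest and one of the most basic ribosomal proteins, and its 3 pseudogenes all have its complete coding sequence. RPL41P1 had 202 Nanopore counts (501 CPM) and 1456 Illumina counts (7.59 CPM), or 42.7% and 1.11% of RPL41. RPL41P5 (chr12:93083598-93083675, minus strand) had 77 and 675 counts, or 16.3% and 0.515% of RPL41. RPL41P2, named after its values were seen, had 0 Nanopore and 1538 Illumina counts. Its 0 allows up to 7.44 CPM at a floor of 3 counts and up to 9.53 CPM by the Wilson interval, so its Illumina level of 8.02 CPM was not shown to be higher.

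**Figure D1:**
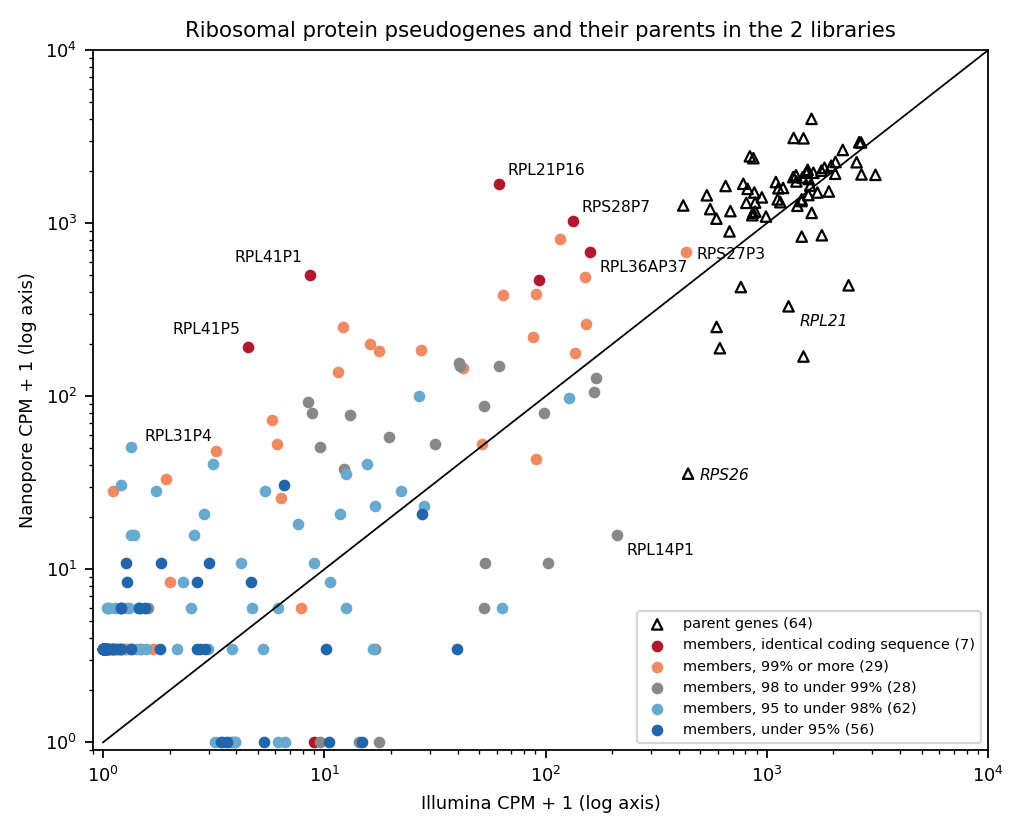
Each point is a gene, placed by its Illumina CPM + 1 (horizontal, log axis) and its Nanopore CPM + 1 (vertical, log axis). Filled points are the 182 members coloured by identity to the parent's coding sequence, triangles are the 64 parents, and the line marks equal values. RPL21P16 at 1694 and 60.6 CPM lies above its parent RPL21, and RPL14P1 lies below the line.

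The libraries were compared gene by gene over the 12414 genes whose mean CPM reached 5, with an exact binomial test (two-sided, conditional on both totals) and Benjamini-Hochberg adjustment. A gene was called when the adjusted p was under 0.05 and the ratio of CPM + 1 at least 4-fold. Of the 84 members tested, 36 (42.9%) were called higher by Nanopore, where 12.9% of all tested genes were, and 10 (11.9%) higher by Illumina, where 7.31% were. Of the 36, 9 had under 1 CPM by Illumina, and of the 10, 3 had no Nanopore count. These 12 entered the test through the library in which they were high, and their calls follow from it. The same holds for other called members under 5 CPM in the lower library. Among them were RPL41P5 (3.52 CPM by Illumina), RPS27P4 (4.80 by Illumina), RPS10P3 (4.96 by Nanopore) and RPS7P11 (4.96 by Nanopore). The members' median log2 ratio was 1.67, against -0.42 for all tested genes. With Illumina counts divided by exonic length the direction turned: 10 members were called higher by Nanopore and 26 by Illumina, against 15.2% and 3.09% of all genes, and the members' median was -0.76 against 0.42. Among tested members, the 28 shortest (78 to 408 bases) had a median log2 ratio of 2.40, the middle 28 had 1.84 and the 28 longest (585 to 2128 bases) had 0.55. The direction over the members thus depended on this choice, and none is drawn from these counts.

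The ribosomal protein genes themselves were counted on the same scale. Of 82 tested, none was called higher by Nanopore and 3 (RPS26, RPS9 and RPS18) were called higher by Illumina, with a median log2 ratio of 0.27. With Illumina counts divided by exonic length 5 were called in each direction, and the median was 0.49. Of 147 tested processed pseudogenes of other genes, 24 (16.3%) were called higher by Nanopore and 51 (34.7%) by Illumina, with a median of -1.21. Members of large-subunit parents (24 and 6 called of 54) and of small-subunit parents (12 and 4 of 30) had medians of 1.67 and 1.63.

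A member's share of its own parent uses only counts of the same library. The share was higher by Nanopore in 59 of the 84 tested members, with medians of 3.19% by Nanopore and 1.13% by Illumina. These 59 were all 36 members called higher by Nanopore and 23 of the 38 not called, so the tally largely restates the calls. Of the 84, 9 had under 1 CPM by Illumina and passed the filter through Nanopore. When the Illumina counts of member and parent were each divided by length, the share was higher by Nanopore in 49 of 84, with an Illumina median of 2.47%. No such tally is given over all 182 members, since 81 of them passed the rule through Nanopore with under 1 CPM by Illumina. Per base of length 2 members exceeded the parent by Illumina. RPL14P1 reached 288% of RPL14, against 1.14% by Nanopore, where the parent's length is that of a canonical transcript of 7136 bases. RPS28P7 reached 109% of RPS28 by Illumina, where its length is 210 bases and the parent's canonical transcript has 1330. Both values thus rest on the transcript chosen for the parent. The Nanopore shares, 1.14% for RPL14P1 and 242% for RPS28P7, were not divided by length. By Illumina per base RPL21P16 reached 5.67%, RPL36AP37 63.4%, RPL39P3 39.2% and RPS27P3 43.2%. Among the 84 tested members, more than 10% of the parent's count was reached by 21 by Nanopore, by 9 by Illumina and by 16 by Illumina per base.

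Adding each parent and its pseudogenes, members or not, gives the counts of a family. Pseudogenes held more of a family's counts by Nanopore in 46 of the 64 families, with medians of 2.89% and 1.93%, and held over 10% in 17 families by Nanopore and in 10 by Illumina. A family entered with 1 Nanopore count of a pseudogene, as those of RPS25 (1 Nanopore and 0 Illumina counts) and RPL38 (1 and 9) did. In such families the direction follows from the rule, so no direction is drawn from the tally. In the RPL21 family, with 131 pseudogenes of which 13 were members, they held 84.5% by Nanopore (interval 82.0 to 86.8%) and 5.63% by Illumina. In the RPL36A family they held 73.2% (68.5 to 77.4%) and 21.4%, and in the RPS28 family 70.8% (67.1 to 74.4%) and 15.5%. For RPS26, a small-subunit protein at the mRNA exit channel, they held 70.2% (56.0 to 81.3%) and 2.00%, and for RPL9 57.1% (49.7 to 64.1%) and 1.89%. In these 5 families the pseudogenes took the larger part of the Nanopore counts, or, for RPL9, a part not told apart from an equal split. In the RPL21 family RPL21P16 held 683 of the 727 Nanopore counts of the pseudogenes. In the RPS26 family the counts were few, with 14 for RPS26 and 33 for its pseudogenes.

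Some families went the other way. RPL14 pseudogenes held 1.12% of the family's Nanopore counts (0.516 to 2.43%) and 21.0% of its Illumina counts. RPL24 pseudogenes held 2.21% (1.27 to 3.83%) and 11.4%, RPS10 pseudogenes 0.452% (0.124 to 1.63%) and 6.10%, and RPL29 pseudogenes 8.86% (6.69 to 11.6%) and 13.0%. In all 4 the Illumina share lay above the Nanopore interval.

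For several parents that were lower by Nanopore, adding the pseudogenes moved the ratio. RPL21 alone had a log2 ratio of -1.92, and the RPL21 family as a whole had 0.68. For RPL36A the ratio went from -1.24 to 0.31 with its pseudogenes added, for RPS28 from -0.84 to 0.70, and for RPL9 from -1.69 to -0.51. RPS26 went from -3.62 to -1.93 and RPS18 from -2.42 to -1.96, so both stayed lower by Nanopore. Over the 64 families the standard deviation of the log2 ratio was 1.01 for parents and 0.82 for families.

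**Figure D2:**
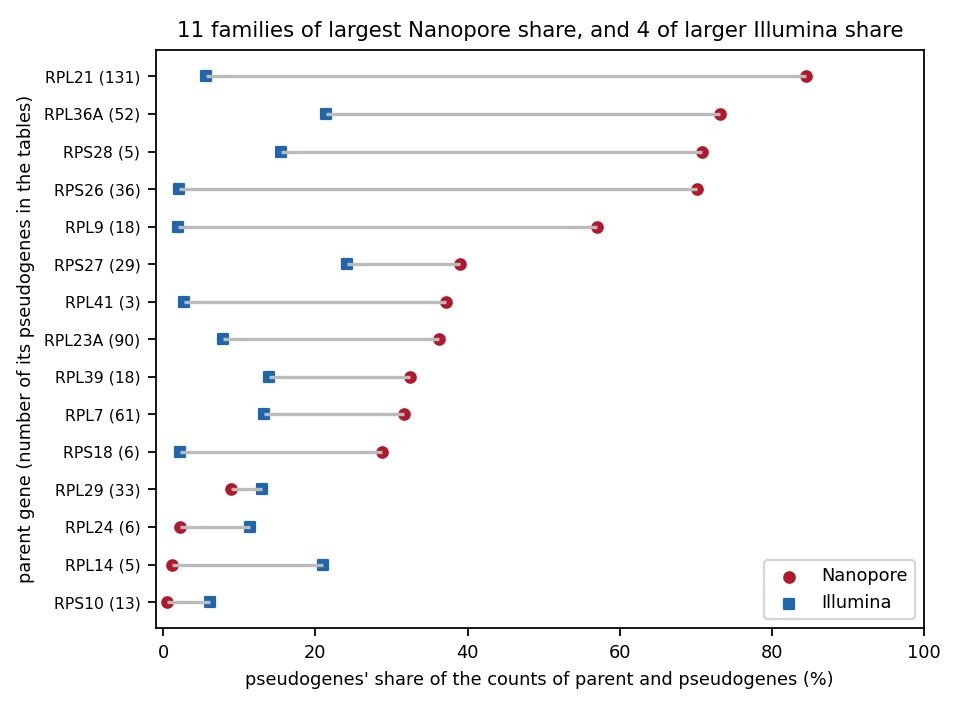
The pseudogenes' share of the counts of parent plus pseudogenes (horizontal, percent) is shown for the 11 families with the largest Nanopore share and for 4 families described above with a larger Illumina share, as circles for Nanopore and squares for Illumina, with the number of pseudogenes after each parent's name. RPL21, at 84.5% by Nanopore and 5.63% by Illumina, has the longest line, and RPL14, RPL24, RPS10 and RPL29 have the square to the right of the circle.

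Identity to the parent, which the rule did not use, was higher in members than in the other pseudogenes of the pattern. Members had a median identity of 96.8% to the parent's coding sequence and the 1315 others 87.8%. All 7 pseudogenes with the whole coding sequence identical were members, as were 29 of 31 at 99% or more, 28 of 35 from 98 to under 99%, 62 of 134 from 95 to under 98%, 40 of 439 from 90 to under 95% and 16 of 851 under 90%. The whole parent coding sequence, or at least 95% of it, was present in 94.5% of members and 71.1% of the others. An open reading frame of at least 95% of the parent protein's length was found in 65 members (35.7%) and in 66 of the others (5.02%). It is the longest run from ATG to stop in any forward frame of the annotated span, introns included. Whether it is the parent's frame was not tested, and RPL39P5, with 91 codons against 51 in its parent, is counted. The 30 bases after the annotated end held a median of 11 A in members and in the others. For members annotated over the coding sequence alone, such as RPL21P16, these bases may be part of the copy. Over the 84 tested members the mean CPM and identity had a Spearman rho of 0.75. This is a description over genes that share sequences and were chosen on that same mean.

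Members also shared much of their sequence with other places in the genome. Of the words of 31 bases in a member, a median of 57.0% also occurred elsewhere on the chromosomes of hg38 or in a transcript of a ribosomal protein gene, against 11.5% for the other pseudogenes. In 11 members no word was unique, among them RPL21P16, RPS28P7, RPL36AP37, RPL39P3, RPL41P1 and RPL41P5. These 6 are also the tested members with an identical coding sequence. The longest run shared with the parent was at least 100 bases in 94 of the 182 members. How the authors' counting treated reads that align to several places is not given in the sources used here, and its part in any of these values was not tested.

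Calls between the libraries were also counted by identity class. The 7 identical members held 38.8% of the members' Nanopore counts and 12.4% of their Illumina counts. All 6 of them that were tested were called higher by Nanopore, with a median log2 ratio of 3.87, where 12.9% of all tested genes were. With Illumina counts divided by exonic length RPL21P16 stayed higher by Nanopore (log2 ratio 2.31), RPL41P1 and RPL41P5 fell to 0.98 and 0.64, below 4-fold, and RPS28P7, RPL36AP37 and RPL39P3 turned to -0.72, -0.97 and -1.78. In the class at 99% or more 14 of 23 tested members were called higher by Nanopore and 0 by Illumina (median 2.59), where 12.9% and 7.31% of all tested genes were. In the class from 98 to under 99% these were 4 and 7 of 21 (median 0.73). From 95 to under 98% they were 9 and 1 of 25 (median 1.38), from 90 to under 95% 2 and 2 of 7, and under 90% 1 and 0 of 2. Some of these calls follow from the filter, which RPL41P5, RPS26P58, RPL31P4 and RPS29P3 passed through Nanopore and RPS7P10 and RPL12P4 through Illumina. No calls by class are given with Illumina counts divided by length, which turned the direction over all members. No link of calls to identity is drawn. The 6 tested identical members were also short, with a median of 183 bases against 498 and 636 in the next 2 classes, and length moved with the ratio as given above. Over the 84 tested members rho was 0.29 between log2 ratio and identity and -0.36 between log2 ratio and length.

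**Figure D3:**
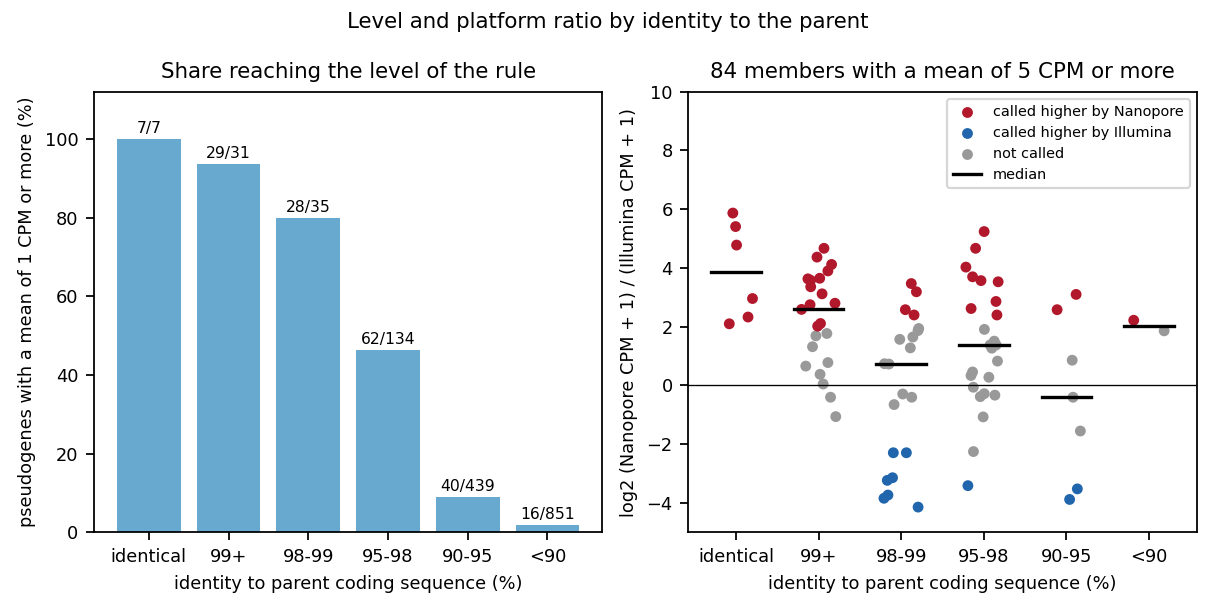
Left, bars give the percent of pseudogenes of each identity class whose mean reached 1 CPM, with members over all pseudogenes written above. Right, points are the 84 tested members by class, with the log2 ratio of Nanopore over Illumina CPM + 1, red where called higher by Nanopore, blue where called higher by Illumina and grey where not called, and black lines are medians. Bars fall from 7 of 7 to 16 of 851, and no blue point lies in the classes at 99% or more.

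Members with the highest ratios included some with few Illumina counts. RPL31P4 (chr14:58794654-58795029), a copy of a protein at the exit tunnel, had 20 Nanopore and 65 Illumina counts (49.6 and 0.339 CPM). Its log2 ratio was 5.24, at 96.8% identity with 182 unique words. RPS26P58, on the X chromosome, had 11 and 21 counts, a log2 ratio of 4.67 and 99.4% identity. It stood at 78.6% of RPS26 by Nanopore (36.4 to 170%) and at 0.0249% by Illumina. RPS29P3, a copy of a zinc-binding small-subunit protein, had 12 and 40 counts and a log2 ratio of 4.67, at 97.1% identity. For these 3 the Illumina level was under 1 CPM, so each passed the rule and the filter through Nanopore alone and no p is given.

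The 10 members called higher by Illumina had a median identity of 98.3%, from 92.9 to 98.8%. An open frame, in any forward frame, of at least 95% of the parent protein's length was found in 1 of them. It was found in 23 of the 36 called higher by Nanopore and in 20 of the 38 not called. RPL14P1 (ENSG00000139239) led the 10, with 6 Nanopore counts (14.9 CPM, 6.82 to 32.5) and 40218 Illumina counts (210 CPM). Its log2 ratio was -3.73 (exact binomial test, adjusted p = 4.029e-27), and it stood at 1.14% of RPL14 by Nanopore (0.519 to 2.49%) and 26.0% by Illumina. RPS6P25, a copy of the phosphorylated small-subunit protein RPS6 at 92.9% identity with 604 unique words, had 1 and 7441 counts. Its CPM was 15.6-fold higher by Illumina, with a counting interval of 2.76 to 88.7. RPS10P3 had 2 and 11931 counts, 12.5-fold higher by Illumina (3.44 to 45.8), and stood at 0.455% of RPS10 by Nanopore and 6.29% by Illumina. The share of the parent was lower by Nanopore in all 10. This follows from the calls, since their parents' log2 ratios ran only from -0.48 (RPL4) to 0.70 (RPL14).

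Of those 10, 3 had no Nanopore count, so their fitted ratios are no bound. At a floor of 3 Nanopore counts, RPS7P10 (3181 Illumina counts) was at least 2.23-fold higher by Illumina, RPL23P8 (2632) at least 1.85-fold and RPL12P4 (2557) at least 1.79-fold. The lower limits of the 95% intervals of these ratios were 1.74, 1.44 and 1.40, so a 4-fold difference was not shown for any of the 3. The others were RPL24P4 (4 and 19407 counts), RPL4P4 (4 and 10014), RPS7P11 (2 and 9883) and RPL6P10 (1 and 3073), which were named after their values were seen. Their lower limits were 3.97 for RPL24P4, 2.05 for RPL4P4 and 2.85 for RPS7P11, and RPL6P10 rests on 1 Nanopore count. The lower limits given above for RPS6P25 and RPS10P3 also lay under 4-fold, and that of RPL14P1 was 6.46.

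The least similar tested members were counted differently again. RPS26P19 (79.5% identity, chr2:127846736-127847084) overlaps an exon of POLR2D, a subunit of RNA polymerase II, on the same strand. It had 12 Nanopore and 1070 Illumina counts, and POLR2D had 13 and 10843. RPL26P30 (83.3%, a transcribed processed pseudogene on chromosome 11) had 4 and 387 counts and was not called (exact binomial test, log2 ratio 1.86, adjusted p = 0.0423). Its parent RPL26 is taken from the symbol, and its closest coding sequence was that of the related gene RPL26L1, so its identity to RPL26 understates its likeness to a ribosomal protein gene. RPL23AP7 (90.7%, chromosome 2) had 1 and 1768 counts and was not called either (log2 ratio -1.55, adjusted p = 0.338).

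Many members lie inside other genes. The body of another gene overlapped 104 members (57.1%), close to the 56.0% of the pattern's other pseudogenes, and 23 members overlapped an exon of another gene. The other gene lay on the same strand in 47 and on the opposite strand in 72. There were 36 pairs of a member with at least 10 Nanopore counts and a gene that contained it whole, from 32 members. In these pairs the containing gene had as many Nanopore counts as the member, or more, in 34, and was within 5% of the member in 16. By Illumina it had as many or more in 14 and was within 5% in 0. The median count of the containing gene was 104% of the member's by Nanopore and 39.8% by Illumina.

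MIR4300HG, a long non-coding RNA gene that contains RPS28P7 on the opposite strand, had 417 Nanopore counts beside 416 for RPS28P7, and 5 Illumina counts beside 25212. TSPAN9, which encodes a tetraspanin and contains RPS27P3 on the opposite strand, had 274 Nanopore counts, the same as RPS27P3, and 6514 Illumina counts beside 82328. PLEKHA7, which encodes a protein of adherens junctions and contains RPL36AP37 on the same strand, had 275 Nanopore counts, again the same, and 339 Illumina counts beside 30317. In each of these pairs the Nanopore count of the containing gene matched that of the member, and its Illumina count was a small part of it. LINC02067 had 326 Nanopore counts beside 326 for RPL23AP42, and 171 Illumina counts beside 22156. OOEP, an oocyte-expressed gene that contains RPL39P3, had 190 Nanopore counts beside 189 and no Illumina count beside 17770. SLC35F1 had 39 Nanopore counts beside 39 for RPL29P4 and no Illumina count beside 24233, and LINC01500 had 20 beside 20 for RPL31P4 and no Illumina count beside 65.

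The Illumina table listed the containing gene at 0 in 8 of the 36 pairs and the Nanopore table in 1. The containing gene was under 10% of the member in 16 pairs by Illumina and in 2 by Nanopore. The Nanopore exceptions were RSKR, with 0 counts beside 105 for RPS7P1, and ENSG00000231873, with 1 beside 29 for RPS27P4. Counts within 5% occurred on both strands, in 6 of 13 pairs on the same strand and in 10 of 23 on the opposite strand. Whether the same Nanopore reads entered both counts cannot be read from gene totals and was not tested.

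**Figure D4:**
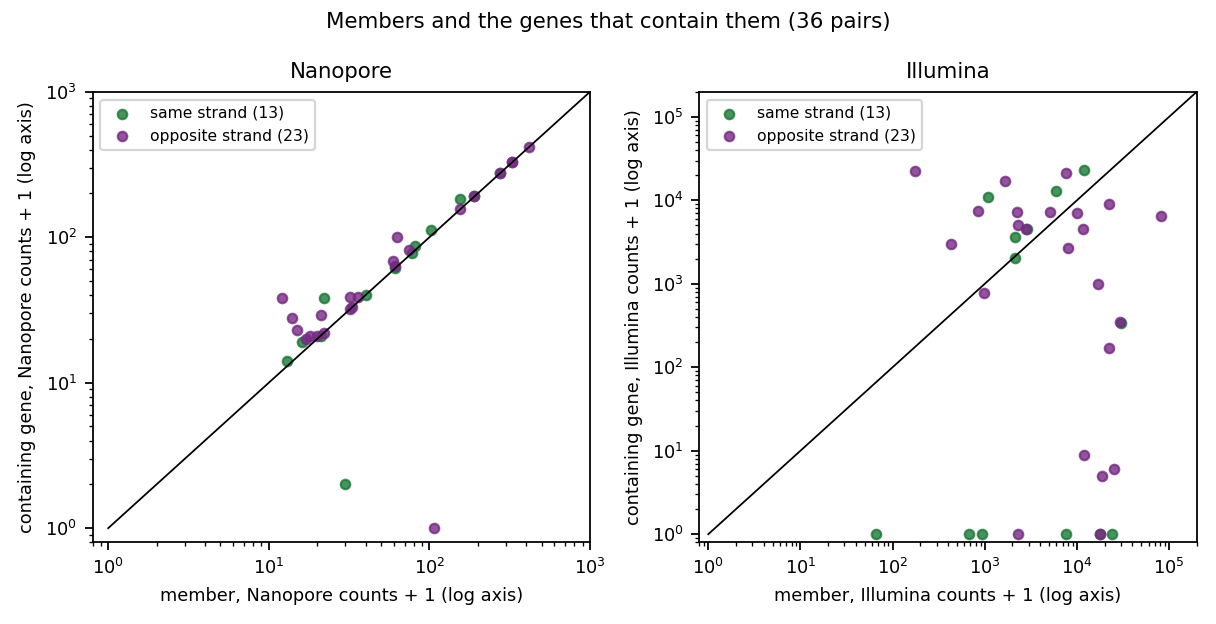
Each point is a pair of a member (horizontal, counts + 1, log axis) and the gene that contains it (vertical, counts + 1, log axis), by Nanopore on the left and Illumina on the right, for the 36 pairs with at least 10 Nanopore counts of the member. Colours give the strand of the containing gene relative to the member, and the line marks equal counts. Nanopore points lie on or above the line in 34 pairs, and Illumina points in 14.

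Members that overlap no gene were also counted apart. Of the 78 members that overlap no gene, 36 were tested, and 14 were called higher by Nanopore and 6 by Illumina, with a median log2 ratio of 1.35, where 12.9% and 7.31% of all tested genes were called. The calls of these 36 were not recomputed with Illumina counts divided by length, which turned the direction over all members. RPL21P16, RPL41P1, RPL7P9 and RPL13AP5 were among the members with no overlapping gene, as were RPL14P1 and RPS10P3. By Nanopore these 78 held 0.470% of all counts and by Illumina 0.138%, and their median share of the parent was 0.443% and 0.101%. The 104 members with an overlapping gene held 0.708% and 0.234% of all counts. The part of overlap in the differences between the libraries was not tested.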

How the data were processed

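Per the labels' protocols, polyadenylated RNA of MCF10a-Snail-ER cells was sequenced as 1 Nanopore direct RNA library and 1 Illumina library, each its own group. The deposited values are whole-number gene counts, not normalized, for 58735 Ensembl identifiers. Per the submitters' processing notes, minimap2 2.11-r797, HISAT2 2.1.0, featureCounts and hg38 were used, without their roles or order. The annotation release, and the handling of reads that map to several places or overlap several genes, are not given in the sources used here. Per the file headers, each table has 1 value column, and the Nanopore name has a suffix that no label explains, which could mark a processing step such as read correction that bears on every Nanopore value.

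Members and lists were chosen with earlier results of these data known. Names, types, positions and transcripts came from GENCODE 44 on hg38, which holds 58207 of the identifiers. The parent is the protein-coding gene named by the symbol without its final P and number. Identity came from local alignment to the parent's coding sequence (Biopython 1.88, match 2, mismatch -3, gap -5 and -2). Counts were divided by library totals (CPM). No replicate spread can be estimated from 1 library per platform, so genes whose mean reached 5 CPM were tested by a two-sided exact conditional binomial test (scipy 1.17.1) with Benjamini-Hochberg adjustment, and called at an adjusted p under 0.05 and at least 4-fold on log2 of CPM plus 1, which understates the ratio of rare genes. The test was checked on simulated data. Intervals are 95% Wilson intervals and cover counting error only, and PCR copies are not independent molecules. Named members are the 12 of highest mean CPM, the 6 of highest and the 6 of lowest ratio and the 4 of highest and the 4 of lowest identity among those tested. Of these 25, 1 is not reported here. Alternatives were edgeR 4.0.16 TMM and median-ratio scaling, other pseudocounts and filters, Illumina counts per base of exon, and members that overlap no gene.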

Additional observations from a re-analysis of the deposited data

How the results depend on the processing

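No paired analysis was possible because each platform has 1 library, and no library could be left out. The number of members, 182, became 197 at a mean of 0.5 CPM, 116 at 2 CPM and 84 at 1 CPM in each table. The 36 members called higher by Nanopore became 10 with Illumina counts per base of exon, 23 at a mean of at least 20 CPM (54 tested) and 14 among members that overlap no gene (36 tested), where fewer members were tested in the last 2. The 10 called higher by Illumina became 26, 6 and 6 under the same settings and 6 with a pseudocount of 5 CPM. The members' share of counts, 1.18% by Nanopore and 0.373% by Illumina, became 1.01% and 0.366% without RPL21P16, 0.470% and 0.138% for members that overlap no gene, and 1.04% and 0.337% for those that overlap no exon. The median share of the parent, 0.475% and 0.150%, became 0.443% and 0.101% without overlapping genes and 3.19% and 1.13% at a mean of at least 5 CPM, and the Illumina median became 0.263% per base of length, a setting chosen after seeing the data. Of the 25 named members, none reversed under TMM, median-ratio scaling or another pseudocount, and 9 did with Illumina counts per base: RPS28P7 to -0.72, RPS27P3 to -2.74, RPL36AP37 to -0.97, RPL7P9 to -0.16, RPL39P3 to -1.78, RPL13AP5 to -0.02, RPS7P1 to -1.43, RPL6P27 to -1.23 and RPS26P19 to -0.53 in log2 ratio. The median of the shifts of single genes, over all tested, was 0.77 in log2 ratio for the division by length and 0.12 for median-ratio scaling. Depth limits the Nanopore values: 68 members rest on 1 count of 2.48 CPM.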
